A study of Mus musculus with 6 samples.

Results

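Among sorted tdTomato-positive lung tumour cells, those rich in keratin 8 and keratin 18 transcripts were compared according to which product of the Stk11 locus they carried. The keratin-high cells were chosen by 4 limits on the pooled count matrix, namely at least 500 genes, at most 20% mitochondrial UMIs, at least 1 TdTomato UMI and at least 50 UMIs of Krt8 plus Krt18 per 10000. A UMI (unique molecular identifier) counts 1 captured RNA molecule. Of 16017 cells in the matrix, 12092 met the first 3 limits and 1182 met all 4. Trap cells had at least 1 GFP UMI and no Stk11 UMI, and Stk11 cells had at least 1 Stk11 UMI and no GFP UMI. There were 642 trap cells and 165 Stk11 cells, 807 in all. Each of the 165 Stk11 cells was paired with a trap cell of nearly the same UMI total, and the comparisons below are between these 165 and 165 cells unless another set is named.

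The cells came from 6 mice that carried Lkb1XTR/XTR and Rosa26LSL-tdTomato, in which lentiviral Cre started tumours 20 weeks before harvest. Every mouse was thus homozygous for the XTR allele of Lkb1. The 3 Restored mice, 2 male and 1 female, also carried FLPo-ERT2 and received tamoxifen at 4 mg per dose over 2 weeks. Of the 3 NonRestored mice, 1 male without FLPo-ERT2 received tamoxifen, 1 male without FLPo-ERT2 received vehicle, and 1 female with FLPo-ERT2 received vehicle. Per the study's methods the mice were on a mixed C57BL/6J and 129 background and were adults when tumours were started. Cells positive for CD45, CD31, F4/80 or Ter119 were removed in the sort. The mouse of a cell is not known here, so the matrix was treated as 1 sample and no test over mice was possible. A trap cell or a Stk11 cell cannot be labelled as a NonRestored or a Restored cell. Yet only the Restored mice had both FLPo-ERT2 and tamoxifen, which together delete the trap. The classes may therefore largely follow mouse, group and tamoxifen. The part of these in the ratios below cannot be told apart from that of the transcript and was not tested.

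Stk11 encodes LKB1, a kinase that works in a complex with the pseudokinase STRAD and the scaffold MO25 and switches on AMPK and its relatives. Among these relatives the salt-inducible kinases (SIKs) hold the CRTC co-activators in the cytoplasm, so that loss of LKB1 frees CRTC to act with the transcription factor CREB. In the XTR allele a gene trap, made of a splice acceptor and a GFP sequence, lies in an intron of Stk11. Cre turns the trap into the sense direction, which joins the start of the Stk11 transcript to GFP, and FLPo deletes it, which restores the full transcript. High Krt8 in alveolar epithelium marks cells held between the alveolar type II (ATII) and type I (ATI) fates after injury, and such cells also occur in lung adenocarcinoma.

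Stk11 (ENSMUSG00000003068) lies on the plus strand of chromosome 10, from 80115803 to 80130682 in GRCm38, the same assembly as mm10. In the coding transcript Stk11-201 exon 1 spans 80115803 to 80116907, intron 1 spans 80116908 to 80124801, and exon 10, the last, spans 80130256 to 80130682. Reads of this 3′ assay come mostly from the ends of transcripts, so that Stk11 UMIs mark transcripts that reach the last exons and GFP UMIs mark transcripts cut short by the trap. Both start from the same promoter, which is shown here because it is common to the 2 transcripts that define the classes. Promoters of Nr4a1, Nr4a2 and Per1 (1 of its 2) are shown beside it as examples of members of the CRTC and CREB list described below that hold the letters marked, which the promoters of Crtc1, Crtc3 and Pde4d in the same list do not. Each run is the 250 bases before the start site from RefSeq on GRCm38.p6, and capitals mark TGACG or its reverse complement CGTCA, the core of a CREB binding site.
Stk11, chr10:80115545-80115794, plus strand: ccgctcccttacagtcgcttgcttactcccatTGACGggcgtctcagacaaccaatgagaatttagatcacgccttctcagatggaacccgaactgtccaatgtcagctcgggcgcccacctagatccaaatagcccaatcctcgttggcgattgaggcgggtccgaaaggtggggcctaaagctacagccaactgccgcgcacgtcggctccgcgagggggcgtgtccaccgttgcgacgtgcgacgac
Nr4a1, chr15:101266596-101266845, plus strand: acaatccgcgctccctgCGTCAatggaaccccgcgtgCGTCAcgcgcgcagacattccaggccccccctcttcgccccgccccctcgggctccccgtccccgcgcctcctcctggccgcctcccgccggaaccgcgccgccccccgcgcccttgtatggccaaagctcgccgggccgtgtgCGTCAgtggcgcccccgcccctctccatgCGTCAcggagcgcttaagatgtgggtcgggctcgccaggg
Nr4a2, chr2:57124004-57124253, minus strand: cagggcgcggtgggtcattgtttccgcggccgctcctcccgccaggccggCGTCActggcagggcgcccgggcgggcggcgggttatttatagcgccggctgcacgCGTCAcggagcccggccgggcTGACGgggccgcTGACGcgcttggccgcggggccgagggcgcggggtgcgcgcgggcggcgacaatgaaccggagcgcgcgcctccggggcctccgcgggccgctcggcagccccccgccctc
Per1, chr11:69099902-69100151, plus strand: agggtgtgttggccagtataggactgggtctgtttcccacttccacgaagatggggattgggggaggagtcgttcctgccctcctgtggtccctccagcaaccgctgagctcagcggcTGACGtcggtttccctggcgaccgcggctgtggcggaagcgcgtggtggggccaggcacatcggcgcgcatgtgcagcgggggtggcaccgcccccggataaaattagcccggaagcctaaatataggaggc

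Keratin-high cells carried the trap transcript far more often than the Stk11 transcript, whereas the other tumour cells carried both about equally often. Of the 807 keratin-high cells with either transcript alone, 642 (79.6%, 95% exact binomial interval 76.6 to 82.3) were trap cells. Of the 5911 such cells among the other tumour cells, 2718 (46.0%, interval 44.7 to 47.3) were trap cells. After every cell was thinned to 5000 UMIs the shares were 80.1% (interval 75.1 to 84.6) and 47.1% (interval 44.9 to 49.2). Among cells with a Xist UMI and no Y-linked UMI the keratin-high share was 86.5%, against 45.7% in the other tumour cells. Among cells with a Y-linked UMI and no Xist UMI the keratin-high share was 75.6%, against 47.0%. All intervals here and below cover counting error only, and not the spread between mice.

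**Figure D1:**
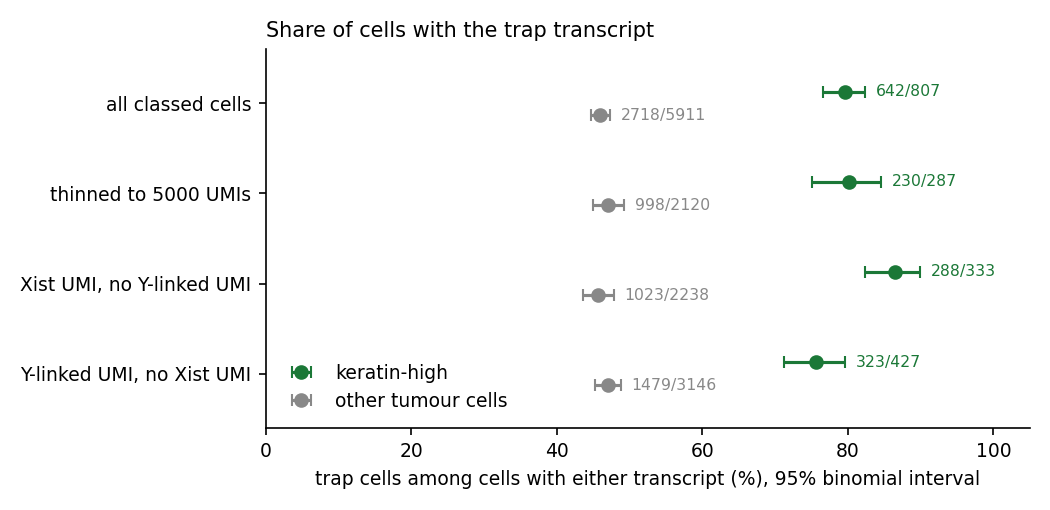
Share of trap cells among cells with a GFP UMI or a Stk11 UMI but not both, in keratin-high cells (green) and other tumour cells (grey), in percent, with exact binomial intervals and the counts beside each point. In all 4 rows the keratin-high share lies between 75.6% and 86.5% and the other share between 45.7% and 47.1%.

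The classes rested on few molecules. Trap cells held 1 to 11 GFP UMIs with a median of 2, and 222 of the 642 had exactly 1. Stk11 cells held up to 11 Stk11 UMIs with a median of 2, and 75 of the 165 had exactly 1. A further 372 keratin-high cells, or 31.5%, had neither transcript at a median of 14846 UMIs, and 3 had both. Thus 3 of 168 cells with a Stk11 UMI also had a GFP UMI (1.79%), and 3 of 645 cells with a GFP UMI also had a Stk11 UMI (0.465%). Free RNA was gauged in 410 cells with at least 20 UMIs of immune, endothelial and fibroblast markers, at a median of 16662.5 UMIs. GFP was seen in 2.93% of these (interval 1.52 to 5.06), against 54.6% of keratin-high cells at a median of 23506 UMIs. At 5000 UMIs a cell the GFP shares were 1.17% and 21.2%. Stk11 was seen in 22.2% of the same 410 cells, in which the locus is not expected to be trapped, so they give no background for Stk11. TdTomato was seen in 87.6% of them, at a median of 4 UMIs against 210 in keratin-high cells, so a limit of 1 TdTomato UMI removed few cells.

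The values that chose the members are given as a description. The keratin-high cells nearest to the limit held 50 and 50.02 Krt8 plus Krt18 UMIs per 10000, and the cells just below it held 49.97 and 49.99. In the matched cells the median was 74.7 in trap cells (lowest 50.2, highest 850.9) and 72.1 in Stk11 cells (lowest 50.04, highest 219.6). The other tumour cells had a median of 9.58. The median matched trap cell held 24515 UMIs from 5120 genes, and the median Stk11 cell 24569 UMIs from 4995 genes. The mitochondrial share was 2.09% and 1.65% in the same order, and its part in the results was not tested. Before matching the median UMI total of trap cells was 28317.5. Summed over cells, TdTomato stood at 10251 CPM in trap cells and 8408 CPM in Stk11 cells, where CPM is the UMIs of a gene for every 1000000 UMIs of the class.

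Defining markers of blood, endothelial and fibroblast cells were at or near 0 in both classes. The 8 immune genes summed to 3 UMIs in trap cells and 1 in Stk11 cells, with 6 and 7 of the genes at 0. The 6 endothelial genes summed to 1 and 4 UMIs, with Kdr and Cldn5 at 0 in both classes. The 6 fibroblast genes summed to 35 and 26 UMIs, most of them Mgp, with Pdgfra at 0 in both. Among club cell genes Scgb1a1, a secretory protein of the airway, stood at 1.08 CPM in trap cells and 25.2 CPM in Stk11 cells, where 50.4% of its UMIs were in 5 cells. The 1 ciliated cell gene at 10 CPM or more was Tppp3, a tubulin polymerization protein, at 358 and 114 CPM, while the defining ciliated factor Foxj1 stood at 0.215 and 0.431 CPM. Keratin-high cells expressed the transitional markers Krt19 (1974 and 1872 CPM) and Krt7 (2441 and 2357 CPM) in nearly every cell of both classes, which accords with their label. The 4 Y-linked genes marked 95 matched trap cells and 104 Stk11 cells, and Xist marked 68 and 45. Since the series holds 1 female mouse of each group, cells with a Xist UMI come from at most 2 mice. Comparisons were therefore repeated within 45 pairs of Xist cells and 104 pairs of Y-linked cells, and list medians of these sets are given with most lists. Only the Restored female had both FLPo-ERT2 and tamoxifen, so the Xist pairs may largely set 1 mouse against the other. Class and mouse cannot be told apart there, and this was not tested.

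Over all genes with at least 10 CPM in either class, 8394 without GFP and Stk11, 209 (2.49%) were over 2-fold higher in trap cells and 225 (2.68%) over 2-fold higher in Stk11 cells. A ratio whose 95% exact counting interval does not hold 1 is called beyond counting error here. By that measure 19.2% of the 8394 genes were higher in trap cells and 14.8% higher in Stk11 cells. The same shares were 11.8% and 9.36% in Xist pairs and 18.4% and 15.3% in Y-linked pairs. They were, in the other tumour cells, where many more UMIs were summed, 69.9% and 13.7%, so counts of members there are to be read against these. The median gene stood at a log2 ratio of 0.04, trap over Stk11, and at 0.20 in the other tumour cells. In the other tumour cells, matched in 2711 pairs, 2.09% of 7986 genes were over 2-fold higher in trap cells and 1.09% over 2-fold higher in Stk11 cells. Of the 207 and 205 keratin-high genes past 2-fold with a value in both sex-linked sets, 191 had the same sign in both sets for trap cells and 142 for Stk11 cells, and 79 and 60 were past 2-fold in both. Over all 8367 genes with both values, 2623 and 2166 had the same sign in both sets, and 87 and 65 were past 2-fold in both. The Stk11 cells of both sets are among those of all pairs, from which the genes were picked, so this agreement is partly built in.

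Targets of p53, the stress-activated tumour suppressor, were lower in trap cells than in Stk11 cells. Of the 10 listed targets with at least 10 CPM, 9 were higher in Stk11 cells beyond counting error, none was higher in trap cells, and the list median was -0.59 on the log2 scale (medians of the members' bounds -0.89 to -0.41). Cdkn1a, which encodes the cell cycle inhibitor p21, had a median over cells of 278 CPM in trap cells (lowest 0, highest 4449) and 1092 CPM in Stk11 cells (lowest 0, highest 5186). The cells of both classes overlapped over most of this range. In sums, Cdkn1a stood at 509.8 CPM and 1118 CPM, a log2 ratio of -1.13 (interval -1.20 to -1.06). Phlda3, an inhibitor of AKT signalling, stood at 174 CPM in trap cells and 411 CPM in Stk11 cells, a log2 ratio of -1.24 (interval -1.36 to -1.12). Ccng1, which encodes cyclin G1, stood at 104 CPM and 208 CPM, a log2 ratio of -0.99. Trp53inp1 and Zmat3, both p53-induced regulators of growth arrest and death, had log2 ratios of -0.81 and -0.68. The pro-apoptotic Bax, the anti-proliferative Btg2, the sestrin Sesn2 and Mdm2, the ligase that degrades p53, lay between -0.49 and -0.43. Perp, a junction protein, was the 1 target within counting error, at -0.04.

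The same direction was seen within both sex-linked sets for most of these targets. The list median was -1.23 in Xist cells, with 9 of 10 higher in Stk11 cells, and -0.44 in Y-linked cells, with 8 of 10. Cdkn1a had a log2 ratio of -2.04 in Xist cells and -0.98 in Y-linked cells. Btg2 was the exception in Xist cells, at 0.27. Per cell, the summed p53 targets had a median of 15.6 UMIs per 10000 in trap cells (quartiles 8.57 and 29.1) and 33.6 in Stk11 cells (quartiles 15.4 and 50.4). Thus 33 of 165 trap cells lay above the Stk11 median, and 122 of 165 Stk11 cells lay above the trap median. In the other tumour cells the same list had a median ratio of 0.09, with per-cell medians of 12.1 and 11.5. Within the sex-linked sets of the other tumour cells the median was -0.31 in Xist cells and 0.20 in Y-linked cells. The keratin-high ratio minus that of the other tumour cells had a median of -0.69, and 9 of the 10 targets were lower in the keratin-high set beyond counting error. Over all genes this difference had a median of -0.17, with 44.6% of 8379 genes lower and 13% higher beyond counting error. Cdkn1a, at 329 and 374 CPM in trap and Stk11 cells outside the keratin-high set, differed between the 2 sets by -0.95 on the log2 scale.

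**Figure D2:**
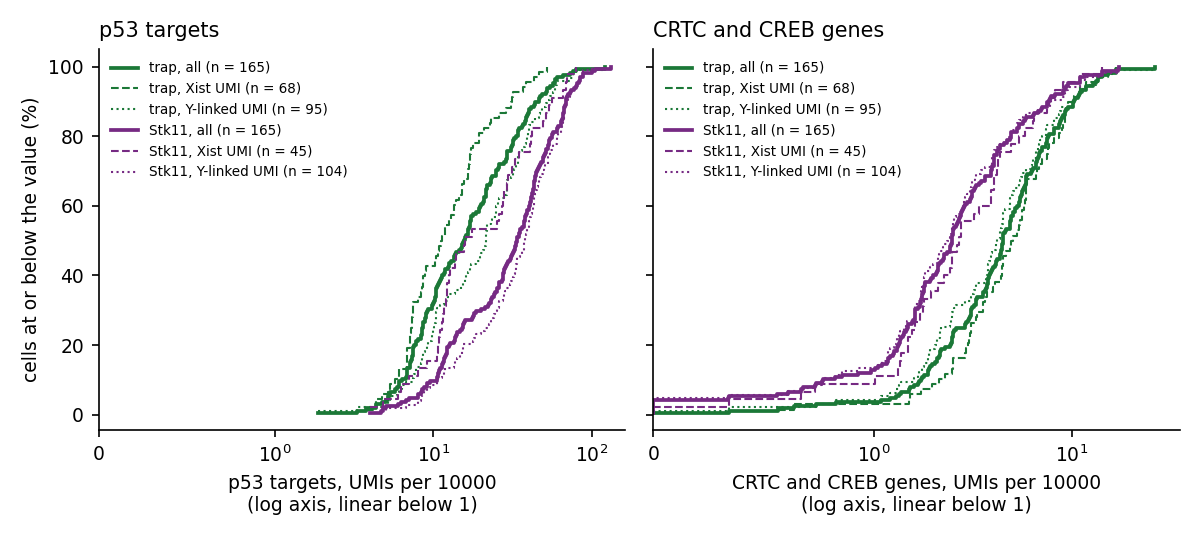
Cumulative share of matched keratin-high cells (%) at or below a summed level of p53 targets (left) or genes of the CRTC and CREB list, co-activators included (right), in UMIs per 10000, for trap cells (green) and Stk11 cells (purple), whole and split by sex-linked UMIs. The p53 curve of Stk11 cells lies to the right of that of trap cells (medians 33.6 and 15.6), and the order is the opposite for the CRTC and CREB list (medians 2.48 and 4.48).

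Cdkn2a, which encodes p16INK4a and p19ARF, an inhibitor of MDM2, lay outside the lists and was singled out after its values were seen. It stood at 60.1 CPM in trap cells and 252 CPM in Stk11 cells, a log2 ratio of -2.07 (interval -2.26 to -1.88). The gene was detected in 48.5% of trap cells and 79.4% of Stk11 cells, and at 5000 UMIs a cell in 21.5% and 57.7%. At the same depth it was seen in 21.0% of 343 of the immune, endothelial and fibroblast cells described above (stromal cells). This share lies near that of trap cells and below that of Stk11 cells. Whether the stromal cells made the gene or held free RNA was not tested. The log2 ratio was -2.45 in Xist cells, -1.81 in Y-linked cells and -0.45 in the other tumour cells. Mtap, a methionine salvage enzyme whose gene lies beside it on chromosome 4 (89137122 to 89181081, plus strand, with Cdkn2a at 89274471 to 89294653, minus strand), stood at 32.5 and 81.9 CPM, with log2 ratios of -1.49 in Xist cells and -1.36 in Y-linked cells. Both neighbours were thus lower in trap cells in each set.

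The list of CRTC co-activators and targets of CRTC and CREB showed the opposite order and was mostly higher in trap cells. Of 8 listed genes with at least 10 CPM, 5 were higher in trap cells beyond counting error and none higher in Stk11 cells, with a list median of 0.73 (medians of the bounds 0.48 to 0.97). Nr4a1, an immediate early orphan nuclear receptor, had a median over cells of 143 CPM in trap cells (highest 1303) and 55.0 CPM in Stk11 cells (highest 1329). Its sums were 203 and 112 CPM, a log2 ratio of 0.86 (interval 0.70 to 1.01). Pde4b and Pde4d, phosphodiesterases that break down cyclic AMP, had log2 ratios of 1.06 and 0.68. Crem, a relative of CREB whose short form represses cyclic AMP signalling, stood at 46.7 and 22.6 CPM, a log2 ratio of 1.05. Nr4a2 had a log2 ratio of 0.77, and the clock gene Per1 one of -0.02. The co-activators Crtc2 and Crtc3, which are not targets, were within counting error at -0.51 and -0.32. Without the co-activators, a split made after the values were seen, 5 of 6 targets were higher in trap cells, with a median of 0.81.

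The list median was 0.56 in Xist cells and 0.67 in Y-linked cells. In the other tumour cells it was 0.52, and the difference between the 2 sets had a median of 0.12 with bounds of -0.02 and 0.27. Per cell, 130 of 165 trap cells lay above the Stk11 median of 2.48 UMIs per 10000 for the whole list, and 135 above 2.04 without the co-activators. Of the 9 genes of this list found in the RefSeq promoter table, 6 held TGACG on either strand in at least 1 promoter (6 of 7 without the co-activators), against 33.3% of 6634 genes with at least 10 CPM and 19.8% of all 27025 genes in that table. The full palindrome TGACGTCA was in none of the 9 and in 1.77% of all genes in the table. Counted by promoter, the shares over all 32851 promoters were 17.8% and 1.55%. A match of these letters is a description of the sequence and not a bound site.

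**Figure D3:**
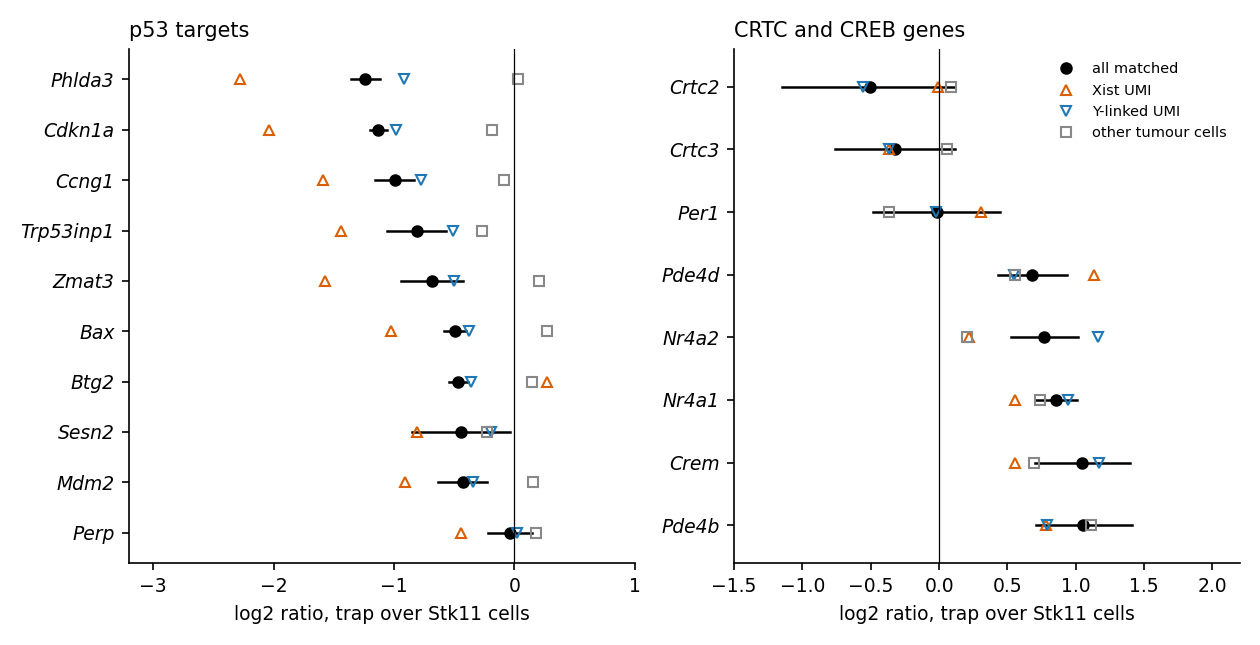
Log2 ratio of trap over Stk11 cells for each p53 target (left) and each gene of the CRTC and CREB list, including the co-activators Crtc2 and Crtc3 (right), with at least 10 CPM, with counting intervals for all matched keratin-high cells (black), and values in Xist cells, Y-linked cells and other tumour cells. In the left panel 9 of 10 black points lie below 0 beyond their bars, and in the right panel 5 of 8 lie above 0.

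Components of the LKB1 pathway itself had small ratios that varied between the sex-linked sets. In the LKB1 complex Stradb, the STRAD-beta pseudokinase, was at 16.1 and 10.3 CPM in trap and Stk11 cells (log2 ratio 0.64), whereas Strada and Cab39, which encode STRAD-alpha and MO25-alpha, were within counting error. Among 4 AMPK subunits with at least 10 CPM the regulatory genes Prkag2 and Prkab1 were higher in trap cells, at log2 ratios of 0.65 and 0.42, and the catalytic Prkaa1 was within counting error at 0.02. Prkag2 was at -0.26 in Xist cells. The LKB1 complex median was 0.38, with -0.26 in Xist cells and 0.71 in Y-linked cells, and that of the AMPK subunits was 0.25, with 0.03 and 0.27. Of 7 other kinases that LKB1 activates, 4 were higher in trap cells and none in Stk11 cells, with a list median of 0.28. Snrk, a relative of sucrose non-fermenting kinase, had a log2 ratio of 0.70, Nuak2 one of 0.58, Sik3 one of 0.42 and Mark2 one of 0.28. Nuak2 turned to -0.319 at a keratin minimum of 100, and Sik3 to -0.0405 at one of 30. Sik1 was within counting error at 0.20. The kinase median was 0.39 in Xist cells, 0.26 in Y-linked cells and 0.38 outside the keratin-high set.

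Summed UMIs of ATII genes were mostly higher in trap cells among keratin-high cells, the reverse of the other tumour cells, though a few cells carried several of the genes. Of 13 genes 10 were higher in trap cells and 2 in Stk11 cells beyond counting error, with a list median of 0.60 (medians of the bounds 0.45 to 0.77). In the other tumour cells 3 were higher in trap cells and 10 in Stk11 cells, with a median of -0.28. The difference had a median of 1.00 (bounds 0.89 to 1.11), and 12 of 13 genes had a higher ratio in the keratin-high set, against 13% of all genes. Fabp5, a fatty acid binding protein, stood at 225 CPM in trap cells and 43.7 CPM in Stk11 cells, and Slc34a2, a phosphate transporter of ATII cells, at 179.6 and 73.7 CPM. Both ratios were past 2-fold in both sex-linked sets, yet over 50% of the trap UMIs of each gene were in 5 cells. Cxcl15, a lung chemokine, and Lyz2, lysozyme, had log2 ratios of 0.76 and 0.19 in sums, but Lyz2 was at -0.21 in Xist cells, and 63.4% and 73.9% of their trap UMIs were in 5 cells. The median over cells had the opposite order for Cxcl15, at 46.9 CPM in trap cells and 80.2 CPM in Stk11 cells, and at 5000 UMIs it was seen in 36.8% and 46.6% of them against 23.3% of stromal cells. For Lyz2 the shares were 20.2% and 44.2%, against 46.6% of stromal cells. These stromal cells include immune cells, whose own Lyz2 cannot be told from free RNA, so they set no background for it. Lamp3, a lamellar body protein, and Napsa, a surfactant protease, had log2 ratios of 0.99 and 0.79.

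The surfactant genes were less uniform. Sftpd had a log2 ratio of 0.60 and Sftpb one of -0.50. Sftpc had a median over cells of 5345 CPM in trap cells (lowest 129, highest 117894) and 1564 CPM in Stk11 cells (lowest 244, highest 162779), while its sums of 18326 and 14405 CPM gave a log2 ratio of only 0.35. It was seen in 94.8% of the 343 stromal cells that reached 5000 UMIs, after thinning to that number, so its share of positive cells is background, and the part of free RNA in its level was not tested. The list median was 0.26 in Xist cells and 0.78 in Y-linked cells, where Sftpc itself had opposite signs, at -0.21 and 0.98. Per cell, the summed ATII genes had a median of 169.7 UMIs per 10000 in trap cells and 111 in Stk11 cells, but of 240.5 and 284 within Xist pairs. Class II antigen presentation genes, which ATII cells express, had a median of 0.58 with 6 of 6 higher in trap cells. Cd74, the invariant chain, stood at 2257 and 1577 CPM, and H2-Ab1 at 199.6 and 116 CPM. This held in Y-linked cells, with a median of 1.32, but not in Xist cells, where the median was -0.09 and 0 of 6 were higher in trap cells. Class I genes had a median of 0.04, with -0.28 in Xist cells and 0.29 in Y-linked cells.

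The C/EBP factors are regulators of ATII identity. Cebpa stood at 144 and 96.9 CPM (log2 ratio 0.57) and Cebpb at 266 and 178 CPM (log2 ratio 0.58), both higher in trap cells, and the other 3 factors were within counting error. The median of the 5 factors was 0.16, with -0.05 in Xist cells and 0.20 in Y-linked cells. In Xist cells Cebpa was at 0.89 and Cebpb at 0.05, and in Y-linked cells the values were 0.20 and 0.90. Among lineage factors Nkx2-1, which specifies lung epithelium, had a log2 ratio of 0.42 and Foxa2, a partner of it in the lung, one of 0.32. Of 7 factors in that list 2 were higher in trap cells and 2 in Stk11 cells, with a median of -0.11, which was 0.45 in Xist cells and -0.16 in Y-linked cells. Hmga2, a chromatin protein of advanced tumours, stood at 2.58 and 18.1 CPM, with UMIs in 7.27% of Stk11 cells and 76.2% of them in 5 cells.

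Transitional genes, those of the keratin-high state, were mostly lower in trap cells here and higher in trap cells elsewhere. Of 12 genes 4 were higher in trap cells and 7 in Stk11 cells, with a list median of -0.33 (medians of the bounds -0.42 to -0.21). Among the other tumour cells 11 of 12 were higher in trap cells, where 69.9% of all genes were, with a median of 0.77 against 0.20 for all genes. Clu, the secreted chaperone clusterin, stood at 4347 CPM in trap cells and 12411 CPM in Stk11 cells, a log2 ratio of -1.51 (interval -1.54 to -1.49). This ratio was -1.73 in Y-linked cells but -0.05 in Xist cells. Cldn4, a tight junction claudin, and Gdf15, a stress-induced cytokine, had log2 ratios of -0.53 and -0.67 and kept their sign in both sets. Areg, the EGFR ligand amphiregulin, stood at 3602 and 3018 CPM, a log2 ratio of 0.26. The list median in Xist cells had the opposite sign, at 0.15. Per cell, the summed transitional genes had a median of 137 UMIs per 10000 in trap cells and 177 in Stk11 cells, against 144 and 126 within Xist pairs.

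ATI genes had no common direction, with 4 of 10 higher in trap cells, 3 in Stk11 cells and a median of -0.06, which was -0.04 in Xist cells and 0.17 in Y-linked cells. Ager, the receptor for advanced glycation end products, and Aqp5, a water channel, both made on the ATI surface, had log2 ratios of 0.51 and 0.58, and both were positive in each sex-linked set. Clic5, a chloride channel family member, had one of -0.54 and was negative in each set. Over cells, the summed ATI genes had a median of 58.6 UMIs per 10000 in trap cells and 43.4 in Stk11 cells.

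**Figure D4:**
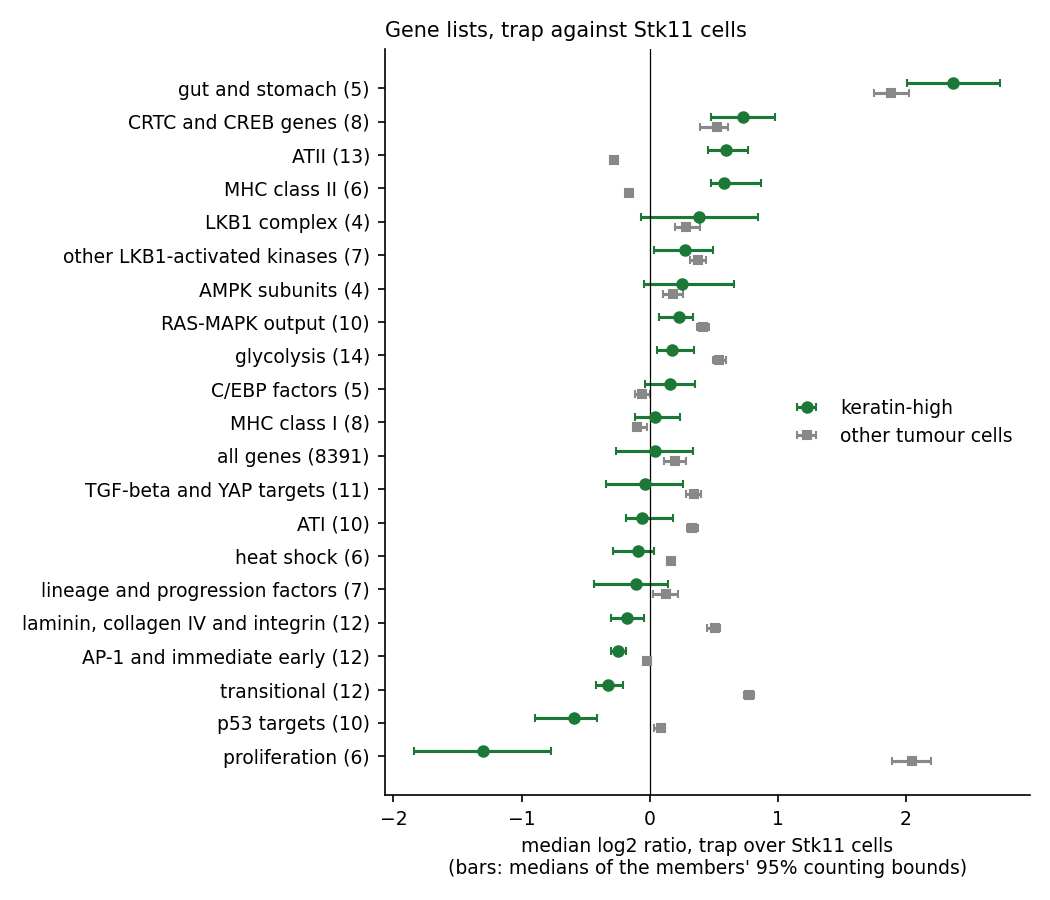
Median log2 ratio of trap over Stk11 cells for each gene list, with the number of genes used, in keratin-high cells (green circles) and other tumour cells (grey squares), with bars from the medians of the members' counting bounds. The ATII, class II, transitional, p53 target and proliferation lists are among those with opposite signs in the 2 sets of cells, whereas the CRTC and CREB list is positive in both, at 0.73 and 0.52. In keratin-high cells the class II and transitional medians turned sign in Xist cells. The proliferation median there rests on a handful of Stk11 cells, and the share of cycling cells had the other order.

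Glycolysis genes were slightly higher in trap cells. Of 14 genes 10 were higher in trap cells and 2 in Stk11 cells, with a median of 0.18 against 0.54 in the other tumour cells. The median was 0.43 in Xist cells and 0.10 in Y-linked cells. Slc16a3, the lactate exporter MCT4, stood at 19.8 and 9.26 CPM (log2 ratio 1.10), Ldha, lactate dehydrogenase A, at 1136 and 820.2 CPM (log2 ratio 0.47), and Hk2, a hexokinase, had a log2 ratio of -0.59. Gapdh had one of 0.19. The sign of Hk2 turned after thinning, to 0.074, and at a keratin minimum of 100, to 0.168. Genes that report MAPK signalling had a median of 0.23, with 6 of 10 higher in trap cells, and medians of 0.31 in Xist cells and 0.14 in Y-linked cells. Spry2, a feedback inhibitor of the pathway, had a log2 ratio of 0.80, Phlda1 one of 0.19 and the phosphatase Dusp5 one of -0.69.

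AP-1 and immediate early genes, which also respond to dissociation of tissue, had a median of -0.25, with 1 of 12 higher in trap cells and 8 in Stk11 cells. Ier3 had the lowest log2 ratio, at -0.82, Jund one of -0.12 and Ier2 one of 0.23. In Xist cells the list median was 0.20 and in Y-linked cells -0.24. Heat shock genes had a median of -0.09, with 0.10 in Xist cells and 0.02 in Y-linked cells, and log2 ratios of -0.79 for Hspb1, -0.33 for Hsp90aa1 and 0.42 for Hspa1a. The part of cell handling in these values was not tested.

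Matrix and adhesion genes were mostly within 2-fold apart from Itgb4. The laminin, collagen IV and integrin list had a median of -0.18, with 3 of 12 higher in trap cells and 7 in Stk11 cells. This direction did not hold within the sex-linked sets, where the medians were 0.07 in Xist cells and 0.07 in Y-linked cells, nor with pairs formed within these sets, where it was 0.02. Outside the keratin-high set 10 of 10 were higher in trap cells, where 69.9% of all genes were. Itgb4, the hemidesmosomal integrin beta 4, stood at 11.6 CPM in trap cells and 47.2 CPM in Stk11 cells, a log2 ratio of -2.02 (interval -2.48 to -1.59), and was past 2-fold in both sex-linked sets. Itga2, the collagen-binding integrin alpha 2, was at -0.75, with 0.74 in Xist cells and -1.78 in Y-linked cells. Col4a2 and Itgb1 had log2 ratios of 0.29 and 0.08. In the list of TGF-beta and YAP targets 2 genes stood far apart in opposite directions. Tgfbi, a secreted matrix protein induced by TGF-beta, stood at 236 CPM in trap cells and 29.9 CPM in Stk11 cells, and Ctgf, the YAP target connective tissue growth factor, at 24.5 and 182 CPM. Their log2 ratios were 2.98 and -2.89, and each kept its direction past 2-fold in Xist and Y-linked cells and in the other tumour cells. Cyr61, another YAP target, had a log2 ratio of 0.33, but its sign turned in 6 of 18 alternative settings. The list median was -0.04, with 0.29 in Xist cells and -0.09 in Y-linked cells.

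Outside the lists, the 10 genes with the largest ratios toward trap cells were Retnla, Kcne2, Nnat, Rbm24, Il33, Pthlh, Tmem213, Rgs4, R3hdml and Rgs16. Kcne2, a potassium channel subunit, was the most widely detected of these. It had a median over cells of 191 CPM in trap cells (highest 3053) and 0 in Stk11 cells (highest 584), with UMIs in 87.3% of trap cells and 23.6% of Stk11 cells. At 5000 UMIs these shares were 58.3% and 7.36%, against 3.21% of stromal cells. Rbm24, Aldh1a3, Psrc1, Phgr1, Gkn2, Hmga2, Klra4, Mcpt1 and Tff1, whose shares of cells are also given, were each seen in at most 1.17% of stromal cells at that depth. Its sums were 284 and 21.5 CPM, a log2 ratio of 3.72 (interval 3.43 to 4.03). Rbm24, a splicing regulator of muscle, stood at 51.0 and 4.52 CPM and was seen in 48.5% and 7.27% of cells. Nnat, the imprinted gene neuronatin, stood at 86.3 and 7.54 CPM, and Rgs4, which dampens G-protein signalling, at 156 and 29.7 CPM. Pthlh, parathyroid hormone-related protein, stood at 136 and 16.4 CPM. Of the 10 genes 8 were past 2-fold in both sex-linked sets, and the exceptions were Il33, an alarmin cytokine, at 0.96 in Y-linked cells and Rgs16 at 0.50 in Xist cells. Retnla, a resistin family protein, rested on few cells, with 67.1% of its trap UMIs in 5 cells.

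Toward Stk11 cells the 10 genes were Gpa33, Klra4, AA467197, Mcpt1, Spp1, Anxa10, Cpe, Ephx2, Col8a1 and Aldh1a3. Most of them were present in a minority of Stk11 cells. Aldh1a3, a retinoic acid synthesising enzyme, stood at 9.47 CPM in trap cells and 270.3 CPM in Stk11 cells and was seen in 7.27% and 28.5% of cells, with a log2 ratio of -4.83 (interval -5.30 to -4.40). Col8a1, a short-chain collagen, stood at 1.29 and 42.9 CPM. These 2 genes were past 2-fold in both sex-linked sets. Klra4 had no UMI in trap cells and 597 in Stk11 cells, at least 199-fold higher against a floor of 3 counts, but only 13.9% of Stk11 cells held any. Mcpt1, a mast cell protease, had 410 UMIs in 1.82% of Stk11 cells and none in trap cells. Spp1, the matrix protein osteopontin, had 91.9% of its Stk11 UMIs in 5 cells. That share was 90.5% for AA467197, 83.5% for Cpe, 63.3% for Anxa10 and 57.8% for Aldh1a3. It was 51.9% for Ephx2, 45.2% for Col8a1 and 44.7% for Gpa33. In Xist cells Gpa33, AA467197 and Anxa10 had a few UMIs in trap cells and none in Stk11 cells, Spp1 was within counting error, and Klra4, Mcpt1, Cpe and Ephx2 had too few UMIs for a ratio.

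**Figure D5:**
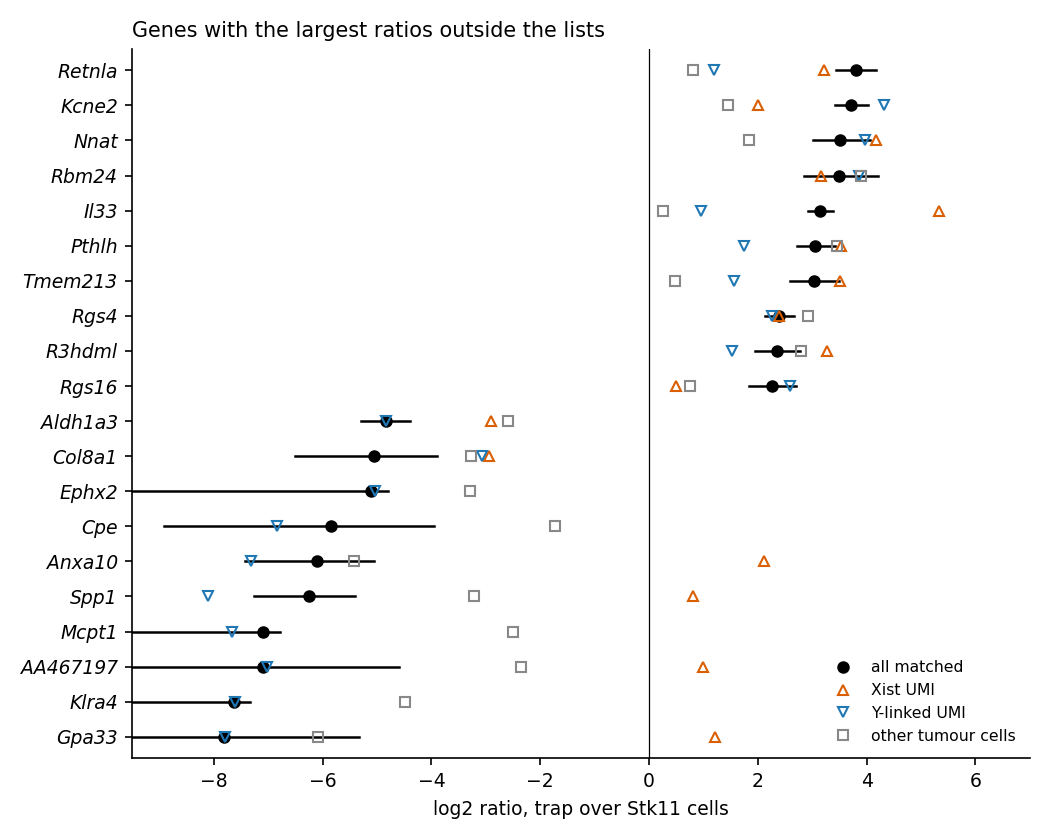
Log2 ratio of trap over Stk11 cells for the 10 genes named above on either side, with counting intervals in black and values in Xist cells, Y-linked cells and other tumour cells. Bars that reach the left edge go on beyond it. The upper 10 genes lie above 0 in every set drawn, whereas 4 of the lower 10 lie above 0 in Xist cells. A value with no UMI in 1 class is drawn at the bound that a floor of 3 counts gives.

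In all, 82 genes with at least 20 CPM were past 2-fold in the same direction in all pairs, Xist pairs and Y-linked pairs. Of these, 46 were higher in trap cells and 36 in Stk11 cells. The total of genes at 20 CPM is not given here, so the 82 cannot be read as a share. Of the 8367 genes with at least 10 CPM and a value in both sex-linked sets, 87 and 65 were past 2-fold in both. All pairs share their Stk11 cells with both sets, so this agreement is partly built in. The few named here, out of those of the 82 not described above, were chosen after their values were seen. They do not stand for the whole. Toward trap cells they were Cd36, a fatty acid transporter, at 348 and 89.4 CPM, Pmvk, an enzyme of the mevalonate pathway, at 448 and 106 CPM, Ptgs1, cyclooxygenase 1, at 85.9 and 19.6 CPM, and Cap2, which binds actin, at 94.3 and 24.1 CPM. Toward Stk11 cells they were Tnip3, an inhibitor of NF-kappaB signalling, at 11.6 and 191 CPM, Tm4sf1, a tetraspanin-like membrane protein, at 9.26 and 232 CPM, and the chemokine Cxcl1 at 23.9 and 283 CPM. The plasminogen activator Plat stood at 6.89 and 104 CPM, the adhesion molecule Vcam1 at 12.7 and 131 CPM, Marcks, a protein kinase C substrate, at 4.52 and 28.0 CPM, and the epithelial factor Ehf at 15.3 and 56.2 CPM. Psrc1, a spindle protein and a known p53 target, stood at 33.6 and 101 CPM and was seen in 31.5% and 70.9% of cells. For Cxcl1 and Vcam1 over 70% of the Stk11 UMIs were in 5 cells.

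Few keratin-high cells were cycling, taken as at least 3 UMIs of 10 proliferation genes after thinning to 5000 UMIs. The share was 8 of 163 trap cells (4.91%, interval 2.14 to 9.44) and 3 of 163 Stk11 cells (1.84%, interval 0.381 to 5.28), and these intervals overlap. Without thinning the shares were 8.48% and 3.03%. Sums of the same genes gave the opposite order, with a list median of -1.30 in all pairs and -1.41 in Xist pairs, since nearly all UMIs of Stk11 cells were in a handful of cells. At a keratin minimum of 30 the list median turned to 1.27. Ube2c, which drives mitotic exit, stood at 15.9 and 64.0 CPM with UMIs in 12.1% and 3.03% of cells (at 5000 UMIs 5.52% and 2.45%, against 2.04% of stromal cells), and all of its Stk11 UMIs were in 5 cells. The 3 cycling Stk11 cells all had a Xist UMI, and 0 of 103 Y-linked Stk11 cells were cycling, for which the exact interval reaches 3.52% and 3 counts of the total would be 2.91%. Before matching, 4.53% of 287 Xist trap cells were cycling, against 6.67% of 45 Xist Stk11 cells, so the order turned there. Of 321 Y-linked trap cells 2.49% were cycling. In the other tumour cells the shares were 3.71% and 0.862%.

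Gut and stomach genes, which appear in advanced lung adenocarcinoma, also rested on small numbers of cells, and all but 1 of the 5 genes used split by sex-linked set. The exception was Phgr1, a proline-rich gut protein, which stood at 85.5 and 16.6 CPM with UMIs in 29.1% and 12.7% of cells and had log2 ratios of 3.55 in Xist cells and 1.01 in Y-linked cells. Tff1, a trefoil peptide, had all of its trap UMIs in 1.21% of cells. Gkn2, a gastrokine, stood at 302 and 34.5 CPM with UMIs in 19.4% and 3.64% of cells, and its log2 ratio was 9.96 in Xist cells and -0.63 in Y-linked cells. Psca, prostate stem cell antigen, had no UMI in Xist Stk11 cells, so that its log2 ratio there is at least 7.43 against the floor of 3 counts, and one of -3.97 in Y-linked cells. Hnf4a, a hepatocyte and gut factor, stood at 1.51 and 13.8 CPM. With 5 genes used, the list median of 2.37 stood for no common direction, since it was 7.43, a lower bound, in Xist cells and -2.25 in Y-linked cells.

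The promoters of the genes past 2-fold were read for the AP-1 site TGANTCA on either strand within the same 250 bases. It was in at least 1 promoter of 25 of 166 genes higher in Stk11 cells (15.1%) and of 10 of 162 genes higher in trap cells (6.17%), against 5.38% of 6634 genes with at least 10 CPM and 7.82% of all genes in the table, or 6.75% of all promoters. Among the genes past 2-fold in both sex-linked sets as well, 1 of 44 higher in Stk11 cells and 2 of 63 higher in trap cells held it. The same promoters were also read for TGACG and for the TEAD site GGAATG. The first was in 25.9% of the genes higher in trap cells and 22.9% of those higher in Stk11 cells, both below the 33.3% of genes with at least 10 CPM. The TEAD site was in 13.6% and 17.5%, against 12.5%.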

How the data were processed

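The authors deposited raw UMI counts as a gene-by-cell matrix without normalization. The submitters' processing notes name Cell Ranger 3.0.2 and mm10. Libraries of the 6 mice stand together in 1 matrix of 16017 cells with GFP and TdTomato as added features, and neither cell barcodes nor the mouse of a cell were used here, so barcodes shared between libraries were not counted. The members and gene lists were chosen with earlier results of these data known. No doublet caller was run, and 3 cells with both transcripts were left out of the classes.

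Trap and Stk11 cells were paired by optimal assignment on log2 UMI total with a caliper of 0.2 (largest gap 0.188), in Python 3.11.15 with numpy 2.4.6, scipy 1.17.1 and pandas 2.3.3. UMIs were summed per class (4645003 and 4642619 in all) and scaled to CPM over all genes. Ratios carry exact conditional binomial intervals at 95%, shares exact Clopper-Pearson intervals, and a class with no UMI was set to a floor of 3 counts. Genes under 10 CPM in both classes, and genes with at most 3 counts in each, were not used. With 1 pooled sample there was no test over replicates, and UMIs of 1 cell are not independent. Differences between keratin-high and other tumour cells are differences of log2 ratios with delta-method intervals. Genes named outside the lists had at least 20 CPM, an interval without a ratio of 1 and the 10 largest ratios in each direction, without mitochondrial and sex-linked genes; others are said to be chosen after their values were seen. List genes were to be named for the largest ratio in each direction and the highest level, up to 6 a list, but all used p53 and CRTC genes and further ATII, gut and other list genes are named beyond that, chosen after their values were seen. Scripts were tested on simulated data. Gene positions are from GENCODE M21, which matched the file's build. A further allele of the mice is not reported here.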

Additional observations from a re-analysis of the deposited data

How the results depend on the processing

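No leave-one-out analysis was possible because a cell carries no mouse, and for the same reason the cohorts could not be compared. No paired analysis was possible because the replicate numbers belong to mice, to which no cell can be assigned. Over 18 alternative settings the p53 target median lay between -1.23 and -0.386, the CRTC and CREB median between 0.499 and 0.794, the ATII median between 0.259 and 1.27 and the glycolysis median between 0.081 and 0.430, with no change of sign. The same held for Cdkn1a, Cdkn2a, Kcne2, Tgfbi and Ctgf. With 1 or 2 class UMIs in most cells, depth limits how surely a cell without the other transcript lacked it. The causes of the changes below were not tested.

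The number of genes over 2-fold higher in trap cells, 209 above, was 452 after thinning, 458 at a keratin minimum of 100, 371 in Xist cells, 336 in Y-linked cells, 690 at a minimum of 1 CPM and 71 at 50 CPM. The number higher in Stk11 cells, 225 above, was 368 after thinning, 426 at a keratin minimum of 100, 736 at a minimum of 1 CPM and 56 at 50 CPM. The ATII median was 0.391 with cells drawn in bins of UMI total, 0.424 with every cell weighted the same, 0.379 and 1.27 at keratin minimums of 30 and 100, 0.841 with at least 2 class UMIs, 0.259 in Xist cells and 0.776 in Y-linked cells. The ATI median was -0.231 without matching, -0.239 in bins, -0.226 at a keratin minimum of 30, 0.191 with at least 2 class UMIs and -0.256 at 1 CPM. The transitional median was -0.174 without matching, -0.097 in bins, -0.136 after thinning and -0.081 with at least 2 class UMIs. In Xist cells the glycolysis median was 0.430 and the cycling share of Stk11 cells was 6.67%, against 0% in Y-linked cells.

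Further alternatives were chosen after seeing the data. Matching on UMI total and keratin (160 pairs) gave an ATII median of 0.937 and a transitional median of -0.154, and matching within the sex-linked sets (149 pairs) gave 0.374 and -0.183. Without cells that held any proliferation UMI (136 pairs) the ATII, ATI and transitional medians were 0.939, 0.266 and -0.434.

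Signs turned most often in Xist cells. List medians there were 0.149 for transitional genes, 0.197 for AP-1 genes, 0.066 for laminin, collagen IV and integrin genes and -0.090 for class II genes. Against a floor of 3 counts, since Stk11 cells there had no UMI, the log2 ratios were at least 0.995 for AA467197, 2.11 for Anxa10, 1.22 for Gpa33 and 7.43 for Psca. Other log2 ratios of opposite sign in Xist cells were 0.273 for Btg2, -0.156 for Cd74, -0.035 for Col4a2, -0.398 for H2-Aa, -0.101 for H2-Ab1, -0.559 for H2-K1, 0.317 for Hnf4a, 0.148 for Jund, 0.743 for Itga2, -0.215 for Lyz2, -0.256 for Prkag2, 0.410 for Scgb1a1, 0.189 for Sftpb, -0.210 for Sftpc and 0.803 for Spp1. In Y-linked cells they were 0.069 for the laminin, collagen IV and integrin median, -2.25 for the gut and stomach median, -0.022 for Gapdh, -0.632 for Gkn2, 0.047 for H2-D1, -0.991 for Tff1 and 3.59 for Ube2c.

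Elsewhere, at least 2 class UMIs turned the AP-1 median to 0.106 and Jund to 0.070, and thinning turned Hk2 to 0.074 and Ier2 to -0.051. A keratin minimum of 100 turned Clic5 to 0.113, Cyr61 to -0.460, Hk2 to 0.168, Hspa1a to -0.469, Ier2 to -0.378 and Nuak2 to -0.319. A keratin minimum of 30 turned the proliferation median to 1.27, Cyr61 to -0.078, Sik3 to -0.0405, Tff1 to -2.59 and Ube2c to 0.758. Cyr61 was also at -0.068 with every cell weighted the same, -0.086 in bins, -0.142 with keratin matching and -0.047 without matching. Lyz2 was at -0.115 without matching, -1.96 in bins and -0.104 when matched within the sex-linked sets, and Cxcl15 at -0.273 in bins. Tff1 was at -0.998 in bins and -0.993 without cells that held a proliferation UMI, and the laminin, collagen IV and integrin median was 0.017 when matched within the sex-linked sets.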
